A study of Mus musculus with 18 samples.

Results

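A set of 8 genes among the 17941 gene symbols in the deposited table encodes the core of MHC class II antigen presentation and of T cell costimulation. They were chosen by symbol: Cd74, H2-Aa, H2-Ab1, H2-Eb1, Ciita, Cd80, Cd86 and Cd40. All 8 had a row, and 6 of the 8 had enough counts to be tested (10104 of all 17941 genes did). Ciita and Cd40 did not.

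The RNA came from spleen neutrophils of females of NZBWF1/J, a lupus-prone hybrid of 2 mouse strains, taken without any treatment. There were 6 biological replicates at each of 3 ages (14, 20 and 26 weeks), which stand for 3 stages of that disease, and 1 library per replicate. All 3 groups share strain, sex, tissue and lack of treatment, and no other strain or healthy control is part of the comparison. Flow cytometry had selected singlets that were DAPI-negative, of intermediate Ly6C, and positive for Ly6G, CD11b and Ly6B. The labels do not say whether a replicate was 1 mouse or a pool, so p-values measure the spread between these libraries.

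MHC class II molecules are pairs of an alpha and a beta chain that carry peptides from the endosome to the cell surface, where CD4+ T cells read them. The invariant chain, the product of Cd74, holds the new pair together and blocks its groove until proteases of the endosome remove it. The chain genes and Cd74 share a promoter architecture that is switched on by the transactivator CIITA, and B cells, dendritic cells and macrophages are the usual carriers of that program. CD80 and CD86 on the presenting cell engage CD28 and CTLA-4 on the T cell, and CD40 receives the signal of CD40 ligand. Neutrophils are not classed among the professional presenting cells, although they can acquire class II and costimulatory molecules during inflammation.

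Of the 8 members, 3 (H2-Aa, H2-Eb1 and Cd80) had an entry in the RefSeq promoter table (GRCm38.p6, C57BL/6J, 250 bases before the start and 50 after). Cd74, H2-Ab1, Ciita, Cd86 and Cd40 had none. The sequences of 2 chain genes are shown because both genes had counts together in 6 libraries, and that of Cd80 as a costimulator for comparison. Capitals mark 3 motifs searched on both strands: TGATTGG, the inverted CCAAT form of the Y box bound by NF-Y, TGACGTCA, the cyclic AMP response element, and CTAGNAAC, a part of the X box bound by the RFX complex.
H2-Aa (chr17:34287774-34288073, minus strand): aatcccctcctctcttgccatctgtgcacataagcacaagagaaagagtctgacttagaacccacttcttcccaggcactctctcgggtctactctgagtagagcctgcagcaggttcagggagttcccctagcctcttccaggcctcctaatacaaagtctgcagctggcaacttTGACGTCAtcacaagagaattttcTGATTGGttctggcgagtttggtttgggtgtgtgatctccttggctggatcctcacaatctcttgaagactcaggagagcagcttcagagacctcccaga
H2-Eb1 (chr17:34305617-34305916, plus strand): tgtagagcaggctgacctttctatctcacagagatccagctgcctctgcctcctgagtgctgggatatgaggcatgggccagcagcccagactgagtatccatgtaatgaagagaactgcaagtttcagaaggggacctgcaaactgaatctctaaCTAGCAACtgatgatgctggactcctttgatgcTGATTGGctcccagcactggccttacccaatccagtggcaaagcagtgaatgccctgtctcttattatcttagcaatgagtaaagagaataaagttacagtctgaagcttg
Cd80 (chr16:38458683-38458982, plus strand): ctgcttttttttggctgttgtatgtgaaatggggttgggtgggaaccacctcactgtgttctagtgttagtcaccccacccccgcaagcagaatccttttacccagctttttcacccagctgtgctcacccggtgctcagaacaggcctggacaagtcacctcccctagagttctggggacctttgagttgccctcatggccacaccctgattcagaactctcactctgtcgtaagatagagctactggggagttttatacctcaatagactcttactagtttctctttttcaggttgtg
TGATTGG began 50 bases upstream of the start in H2-Aa and 61 bases upstream in H2-Eb1, and 7.82% of 32851 promoters of the same length held it. H2-Aa also held TGACGTCA (74 bases upstream, in 1.79% of promoters) and H2-Eb1 CTAGNAAC (94 bases upstream, in 3.62%). The Cd80 window lies inside the GENCODE gene model given below, around a start other than the first base of that model, and held none of the 3. The motifs do not overlap. These matches describe the reference letters of C57BL/6J, not the alleles of NZBWF1/J mice.

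In GENCODE M21 models on GRCm38, H2-Ab1 (34257689 to 34269419), H2-Aa (34282744 to 34287823) and H2-Eb1 (34305867 to 34316674) lie in 1 stretch of chromosome 17. Cd74 spans 60803848 to 60812652 on chromosome 18 and Cd40 spans 165055627 to 165072948 on chromosome 2. Ciita (10480059 to 10528418), Cd86 (36603869 to 36666081) and Cd80 (38455561 to 38496335) lie on chromosome 16. Whether the counting used strand is not stated. H2-Eb1 overlaps the antisense gene Gm20513, Ciita overlaps Dexi on the opposite strand and Cd74 overlaps Mir5107 on its own strand. Reads from those overlaps cannot be told apart. Class II chain genes are highly polymorphic and the reads were set against the genome of another strain. How many reads of the NZBWF1/J alleles were lost in that step was not tested.

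Libraries held 5546624 to 17256379 counts, and levels below are CPM, that is counts scaled by library size with TMM factors. Between 8119 and 13164 genes had counts in a library, fewest in replicate 3 of 20 weeks, which stands apart from the rest. All 9 neutrophil markers had counts at every age, and their summed level ran from 53484 to 68293 CPM at 14 weeks, 23187 to 38028 CPM at 20 weeks and 43147 to 144920 CPM at 26 weeks. Of the 9, 1 rose and 7 fell from 14 to 20 weeks, and 4 rose and 1 fell from 20 to 26 weeks. Median levels at the 3 ages were 1285, 426 and 2919 CPM in Ly6g and 2072, 1209 and 932 CPM in Itgam, whose proteins were part of the sort, and 1869, 4118 and 1234 CPM in Csf3r, the receptor gene of G-CSF.

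Cd74 was the member with the highest level per length, and the class II chain genes were present in some libraries and at or near 0 in most. Per kilobase of merged exons, Cd74 averaged 22.6 ± 27.8 CPM (SD over 18 libraries), Cd80 6.01 ± 3.85 and Cd86 3.99 ± 2.7 CPM. The chain genes H2-Ab1, H2-Eb1 and H2-Aa averaged 2.24 ± 4.73, 1.87 ± 3.45 and 1.01 ± 2.55 CPM per kilobase, with medians of 0.162, 0.232 and 0. Cd40 (0.0428 ± 0.106) and Ciita (0.0033 ± 0.014) came last. Cd74 exceeded Cd80 in 13 of 18 libraries, and Cd80 exceeded Cd86 in 13. No neighbours in this order differed by more than the SD of their difference within libraries, as the mean difference was 16.6 with an SD of 26.3 between Cd74 and Cd80 and 2.02 with an SD of 4.86 between Cd80 and Cd86.

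**Figure D1:**
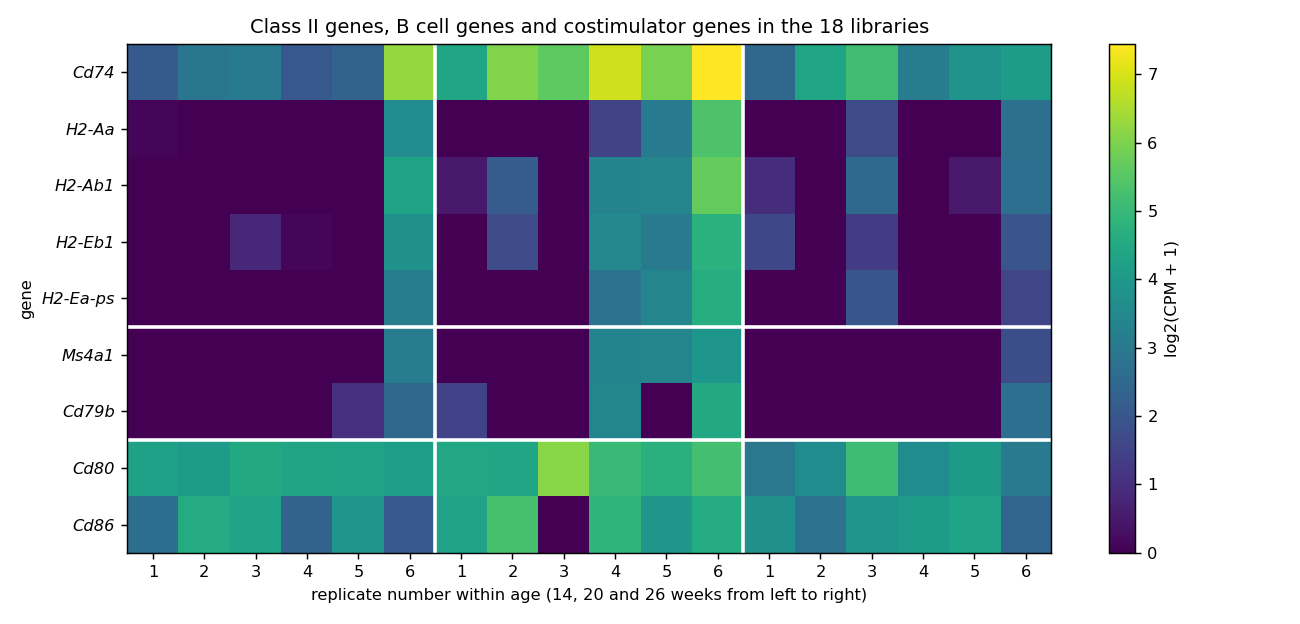
Levels as log2(CPM + 1) of class II genes (top), B cell genes (middle) and costimulator genes (bottom) in the 18 libraries, ordered by age and replicate number. The 6 libraries with counts in all 3 chain genes also hold H2-Ea-ps, 5 of them hold Ms4a1, and Cd80 is present in all 18.

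Cd74 is the gene of the invariant chain. At 14 weeks its level ran from 3.17 to 75.9 CPM with a median of 5.31 CPM. At 20 weeks the lowest, median and highest values were 19.6, 63.1 and 173 CPM. At 26 weeks they were 4.74, 14.3 and 34.7 CPM. All 18 libraries had Cd74 counts. At 14 weeks 5 libraries lay close together, between 3.17 and 7.49 CPM, and replicate 6 alone reached the range of the 20-week libraries. The 20 and 26 week groups overlapped in part, as the lowest 20-week library (replicate 1) lay below the 2 highest of 26 weeks. In RNA from sorted pools, fewer cells of a type and less RNA per cell cannot be told apart.

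Cd74 fell from 20 to 26 weeks, from a mean of 80.9 ± 55.8 to 16 ± 10.7 CPM (SD, n = 6 each). The fitted log2 change was -2.33 ± 0.76 (edgeR quasi-likelihood test, adjusted p = 0.0421). This call was lost when any 1 of replicates 2, 4 and 6 of 20 weeks or replicates 1, 2, 4, 5 and 6 of 26 weeks was left out, with changes of -2.39 to -1.96 and edgeR adjusted p from 0.0543 to 0.0992. From 14 to 20 weeks the log2 change was 2.27 ± 0.76 and was not called (edgeR adjusted p = 0.065). That result turned on replicate 6 of 14 weeks: without it the change was 4.03 with edgeR adjusted p = 0.000792, from a mean of 4.92 ± 1.98 CPM over 5 libraries. Leaving out replicate 1 of 20 weeks also brought a call (2.47, edgeR adjusted p = 0.0413), as did DESeq2 (2.29, adjusted p = 0.00867), limma-voom (3.16, adjusted p = 0.00337) and the stricter filter on low counts (2.32, edgeR adjusted p = 0.0351).

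From 14 to 26 weeks Cd74 had a log2 change of -0.06 ± 0.73 (edgeR adjusted p = 0.976). Without replicate 6 of 14 weeks the sign turned and the gene was called, at 1.70 with edgeR adjusted p = 0.0488. The sign also turned, with no call, without replicate 1, 4 or 5 of 26 weeks (0.14, 0.08 and 0.00093). In the test of any change with age, Cd74 had edgeR adjusted p = 0.0258. The 3 comparisons share their libraries in pairs and are not independent of each other.

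H2-Aa and H2-Ab1 encode the alpha and beta chains of the I-A molecule and H2-Eb1 the beta chain of I-E. At 14 weeks H2-Ab1 had counts in 1 library, replicate 6, at 19.1 CPM, and 0 counts in the other 5. At 20 weeks its lowest, median and highest levels were 0, 6.33 and 50 CPM, with counts in 5 libraries, and at 26 weeks they were 0, 0.683 and 5.53 CPM, with counts in 4. H2-Eb1 ran from 0 to 12.2 CPM at 14 weeks (median 0.0429), from 0 to 25.9 CPM at 20 weeks (median 4.83) and from 0 to 2.87 CPM at 26 weeks (median 0.737). H2-Aa had counts in 2, 3 and 2 libraries of the 3 ages, with highest levels of 11.2, 40.5 and 5.74 CPM. In each of the 3 genes the groups overlapped fully at their lower end, and replicate 6 of 14 weeks and replicate 6 of 20 weeks were the highest of their age.

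None of the chain genes was called between any ages by edgeR, with unadjusted p from 0.121 to 0.807. From 20 to 26 weeks the log2 changes were -2.61 ± 2.00 in H2-Aa, -2.59 ± 1.77 in H2-Ab1 and -2.82 ± 1.74 in H2-Eb1. From 14 to 20 weeks they were 2.14 ± 1.96, 1.92 ± 1.72 and 1.80 ± 1.67. Replicate 6 of 14 weeks moved these values more than 1.5 times: without it H2-Ab1 changed by 10.02 from 14 to 20 weeks (edgeR adjusted p = 0.0214, a fit against 0 counts in the 5 libraries left), H2-Aa by 8.09 (edgeR adjusted p = 0.06) and H2-Eb1 by 5.28 (0.107). Leaving out replicate 6 of 20 weeks had the opposite effect, with changes of 0.0049 in H2-Aa, 0.50 in H2-Ab1 and 0.86 in H2-Eb1. Without that library the changes from 20 to 26 weeks were -0.48 in H2-Aa and -1.18 in H2-Ab1, and without replicate 6 of 26 weeks the change in H2-Aa was -4.04. Limma-voom with quality weights called H2-Ab1 from 14 to 20 weeks (5.39, adjusted p = 0.0457). DESeq2 called no chain gene.

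The chain genes were largely present together. Counts in all 3 of them were found in 6 libraries: replicate 6 of 14 weeks, replicates 4, 5 and 6 of 20 weeks and replicates 3 and 6 of 26 weeks. Summed counts of the 3 genes were 133 to 1159 in these 6 libraries and 0 to 79 in the other 12. H2-Ea-ps, the alpha chain gene of I-E, which the annotation lists as a polymorphic pseudogene after the reference strain, had counts in the same 6 libraries and in 0 of the other 12. Over the 18 libraries, Pearson r of log2 CPM was 0.935 between H2-Ab1 and H2-Eb1 (Spearman rho 0.909), 0.895 between H2-Aa and H2-Ab1 (rho 0.775) and 0.849 between H2-Aa and H2-Eb1 (rho 0.817). With Cd74 these genes had r of 0.682 to 0.795. These values share the same libraries and largely rest on which libraries hold the genes at all, so they are given as a description.

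B cell genes differed in the libraries that held them. Ms4a1, the gene of the B cell surface protein CD20, had counts in 5 of the 6 libraries with all 3 chain genes (23 to 141 counts) and in 0 of the other 12. Cd79b, a subunit of the B cell receptor, had counts in 4 of the 6 and in 2 of the other 12. Cd79a, the other subunit, and Cd22, an inhibitory receptor of B cells, each had counts in 17 of 18 libraries. Cd79a had medians of 2, 2.31 and 2.46 CPM at the 3 ages. Cd22 had medians of 3.06, 39.5 and 12.3 CPM and rose from 14 to 20 weeks (2.90 ± 0.81, edgeR adjusted p = 0.027). It was highest in replicates 1, 5 and 2 of 20 weeks (63.6, 60.5 and 59 CPM), of which replicate 5 held all 3 chain genes. The summed level of 9 B cell markers ran from 1.77 to 33 CPM at 14 weeks, 2.78 to 85.2 CPM at 20 weeks and 12 to 31.9 CPM at 26 weeks. Blk, Fcer2a and Cr2 had counts in at most 2 libraries. The part of B cell RNA in these levels was not tested.

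**Figure D2:**
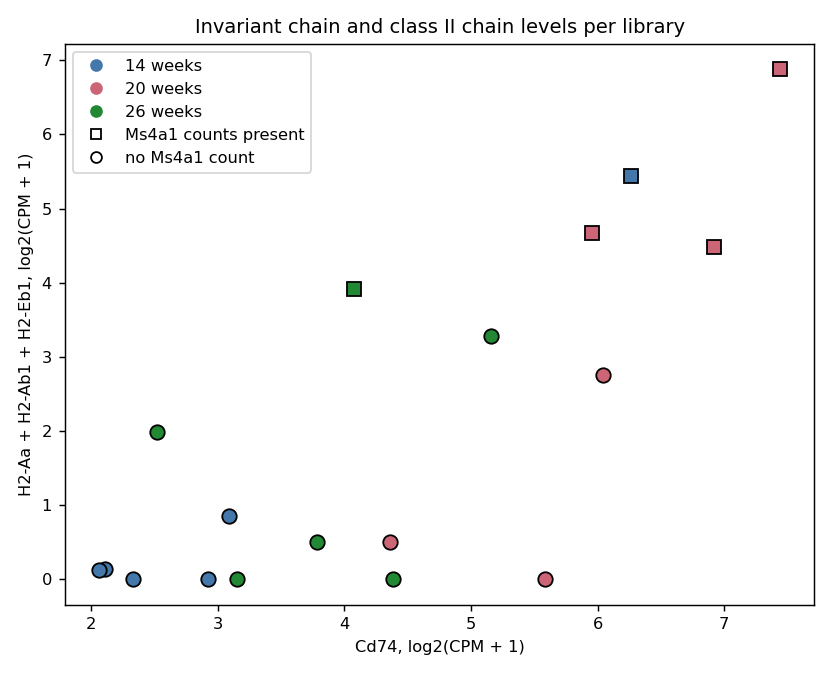
Cd74 (horizontal) against the summed level of H2-Aa, H2-Ab1 and H2-Eb1 (vertical), both as log2(CPM + 1), 1 point per library, with age as colour and squares for libraries with Ms4a1 counts. The 5 squares lie at chain sums of 14.1 to 116 CPM, above the 13 circles, while circles of 20 weeks reach Cd74 levels of 19.6 to 65 CPM with chain sums of 0 to 5.78 CPM.

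Cd74 had counts at 20 weeks also in the 3 libraries without Ms4a1, which held 5 (replicate 1), 79 (replicate 2) and 0 (replicate 3) counts of the chain genes. Among libraries with 0 Ms4a1 counts, Cd74 was 3.17 to 7.49 CPM in 5 libraries of 14 weeks, 19.6 to 65 CPM in 3 libraries of 20 weeks and 4.74 to 34.7 CPM in 5 libraries of 26 weeks. Replicate 3 of 20 weeks had 46.9 CPM of Cd74, 0 counts in the 3 chain genes and 0 counts of Ms4a1 and Cd79b. Fewest genes were detected in that library (8119), and Cd86 and H2-DMb2 had 0 counts there too. The same library had 906 CPM of Jchain, the highest of all 18, and 984 CPM of Ighm, the heavy chain gene of IgM. Ighm had medians of 88.4, 886 and 125 CPM at 14, 20 and 26 weeks. Replicate 6 of 14 weeks was among the 5 libraries that held Ms4a1, and leaving it out alone had already brought a call of that rise. So were replicates 4 and 6 of 20 weeks, the highest in Cd74 (120 and 173 CPM). In a fit without these 5 libraries, chosen after the values were seen, Cd74 rose from 14 to 20 weeks (3.14 ± 0.60, edgeR adjusted p = 0.0299). Its fall from 20 to 26 weeks was not called in that fit (-1.45 ± 0.58, edgeR adjusted p = 0.169). With fewer libraries that fit called 144 genes from 14 to 20 weeks in place of 1030.

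Markers of other cell types also differed in level between the ages. Jchain, the joining chain of plasma cells, had median levels of 0.0858, 270 and 19.9 CPM at 14, 20 and 26 weeks. Replicate 2 of 20 weeks had 2.78 CPM of Jchain and 65 CPM of Cd74. The summed level of 9 dendritic cell markers ran from 0.515 to 18 CPM at 14 weeks, 35 to 86.2 CPM at 20 weeks and 2.51 to 28.2 CPM at 26 weeks. Most of it was Itgax, the CD11c gene, with medians of 4.5, 43.6 and 11.6 CPM. Batf3, a transcription factor gene of dendritic cells, had medians of 0.342, 3.35 and 2.56 CPM with counts in 16 libraries, and was not called from 14 to 20 weeks (2.83 ± 1.03, edgeR adjusted p = 0.0908). Zbtb46, another, had counts in 15 libraries and reached 5.52 CPM at 20 weeks. Flt3, Xcr1, Clec9a and Siglech had counts in at most 2 libraries each. The sum of 12 monocyte and macrophage markers ran from 766 to 1003 CPM, 806 to 1288 CPM and 759 to 1583 CPM at the 3 ages. Ly6c2 made up most of it at 14 and 26 weeks but not at 20 weeks. Its means were 533, 169 and 863 CPM, beside 894, 1057 and 1207 CPM of the sum. Of 4 tested genes of that list, 3 rose and 1 fell from 14 to 20 weeks, and 1 rose and 3 fell from 20 to 26 weeks. Csf1r, the receptor gene of M-CSF, had medians of 192, 496 and 115 CPM, Adgre1, the F4/80 gene, of 42.9, 148 and 36.1 CPM and Cd68 of 124, 256 and 195 CPM. These 3 were called higher at 20 than at 14 weeks and lower at 26 than at 20 weeks, as Cd74 was in the second comparison, with edgeR adjusted p from 0.00105 to 0.0411. Ly6c2 went the other way (medians of 535, 131 and 883 CPM), as Ly6g did, and Ly6C was part of the sort. C1qa, C1qb and Ccr2 had counts in at most 2 libraries.

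The summed level of 3 eosinophil markers ran from 5.83 to 20.5 CPM at 14 weeks, 32.5 to 77 CPM at 20 weeks and 8.29 to 35.7 CPM at 26 weeks, with no overlap between 14 and 20 weeks. Ccr3, the eotaxin receptor gene, rose from 14 to 20 weeks (2.69 ± 0.75, edgeR adjusted p = 0.0262). Siglecf, with medians of 8.56, 27 and 10.2 CPM, was not called over that interval (1.84 ± 0.63, edgeR adjusted p = 0.0708). The sum rested on these 2 genes, as Prg2 had 8 counts in 1 library of 14 weeks and 0 at 20 and 26 weeks. The sum of 6 T cell markers ran from 117 to 149.6 CPM, 50 to 102.1 CPM and 98.2 to 382 CPM. Most of it was Cd3d, a subunit of the CD3 complex, with medians of 128, 66.1 and 181 CPM. Cd3d rose from 20 to 26 weeks (1.51 ± 0.29, edgeR adjusted p = 0.00159), and the 3 other tested genes of that list were not called. The part of all these markers' cells in the levels of Cd74 was not tested.

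Ciita, the transactivator of the class II genes, had 10 counts in 1 library, replicate 3 of 26 weeks (0.567 CPM), and 0 in the other 17. At 14 and 20 weeks, 0 counts in 6 libraries allow a level of up to 0.0446 and 0.0447 CPM over the age (3 counts of the summed depth, counting error only). Cd40, the receptor of CD40 ligand, had 5 counts in replicate 6 of 14 weeks and 12 each in replicates 1 and 6 of 20 weeks. At 26 weeks Cd40 had 0 counts, which allows up to 0.0504 CPM. Neither gene could be tested with the filter on low counts, and without it neither was called by edgeR (adjusted p from 0.112 to 1).

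**Figure D3:**
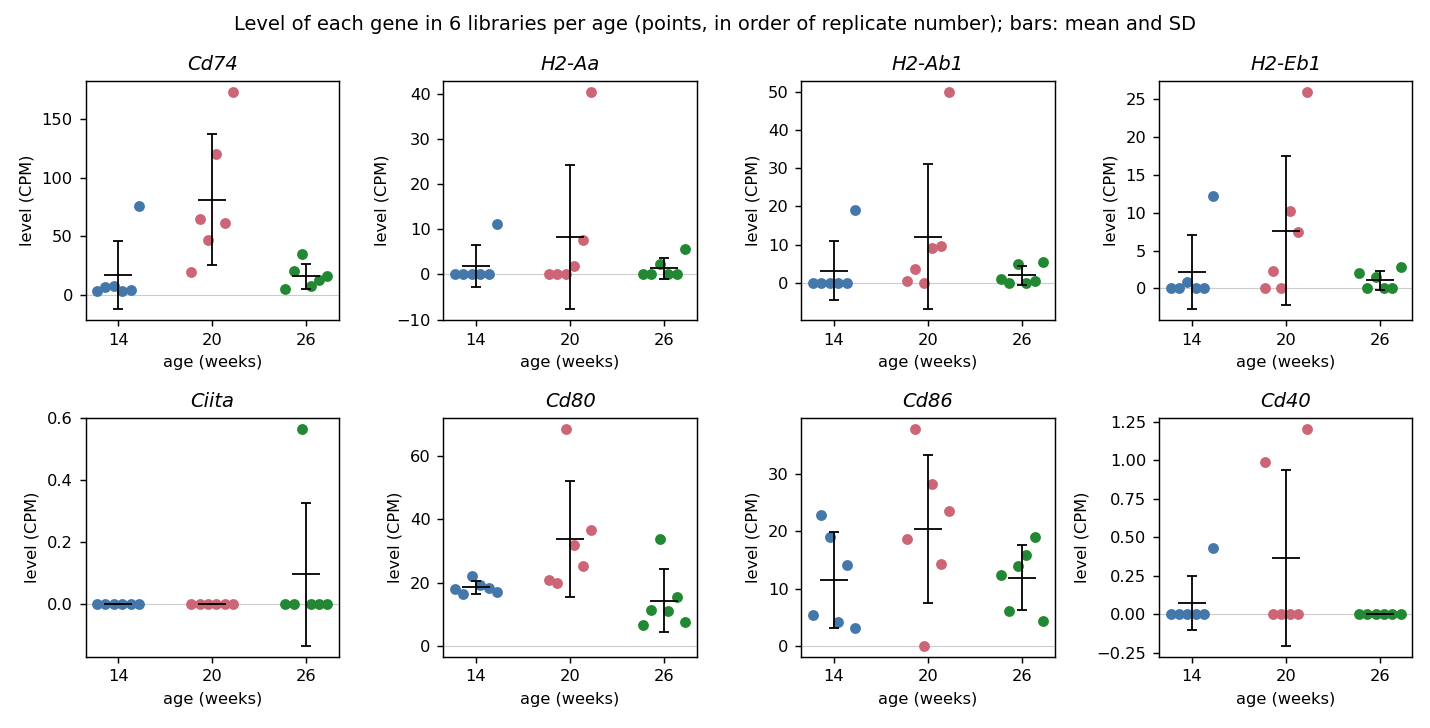
Level in CPM of each of the 8 genes at 14, 20 and 26 weeks, with 1 point per library in order of replicate number and bars for mean and SD (n = 6). Each panel has its own axis. Cd74 reaches 173 CPM and Cd80 68.8 CPM at 20 weeks, and Ciita and Cd40 stay at or below 1.2 CPM.

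Cd80, whose product binds CD28 and CTLA-4, had counts in all 18 libraries and no such split between libraries. At 14 weeks its lowest, median and highest levels were 16.4, 18.3 and 22.2 CPM. At 20 weeks they were 19.8, 28.7 and 68.8 CPM, and at 26 weeks 6.75, 11.3 and 33.9 CPM. Replicate 3 was the highest library both at 20 and at 26 weeks. Apart from it, the 26-week libraries lay at or below 15.5 CPM, under every library of the younger ages.

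Cd80 fell from 20 to 26 weeks, from 33.9 ± 18.3 to 14.4 ± 10.1 CPM (log2 change -1.23 ± 0.38, edgeR adjusted p = 0.0318). The call was lost without replicate 3 or 6 of 20 weeks or replicate 1, 2, 4, 5 or 6 of 26 weeks (edgeR adjusted p from 0.0531 to 0.0812), and without replicate 3 of 20 weeks the change was -0.90. It was also lost with no filter on low counts (adjusted p = 0.0507), with only the 2 ages fitted (0.0918) and without the libraries that held Ms4a1 (-1.20, 0.189). From 14 to 20 weeks Cd80 changed by 0.86 ± 0.38 (edgeR adjusted p = 0.169). From 14 to 26 weeks it changed by -0.37 ± 0.38 (adjusted p = 0.646), and by -0.80 (adjusted p = 0.135) without replicate 3 of 26 weeks. In the test of any change with age it had edgeR adjusted p = 0.045.

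Cd86, the other ligand of CD28 and CTLA-4, was not called between any ages. Its lowest, median and highest levels were 3.12, 9.77 and 22.8 CPM at 14 weeks, 0, 21.1 and 38 CPM at 20 weeks and 4.36, 13.2 and 19.1 CPM at 26 weeks. The groups overlapped. The 0 at 20 weeks was replicate 3, the library with the fewest genes detected and the highest Cd80, and the other 5 libraries of that age had 14.4 to 38 CPM. Fitted log2 changes were 0.84 ± 0.75 from 14 to 20 weeks, -0.78 ± 0.75 from 20 to 26 weeks and 0.06 ± 0.75 from 14 to 26 weeks (edgeR adjusted p = 0.569, 0.545 and 0.98). Cd80 and Cd86 had r = -0.271 and rho = 0.199 over the 18 libraries.

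Of the 6 members tested, 0 were called from 14 to 20 weeks, against 10.2% of all 10104 genes. The lowest unadjusted edgeR p were those of Cd74 (0.00751, adjusted p = 0.065) and Cd80 (0.0332, adjusted p = 0.169). DESeq2 called 1 and limma-voom 2 of the 6, against 15.5% and 14.1% of all genes. From 14 to 26 weeks 0 were called, against 11% of all genes, and the lowest unadjusted edgeR p was 0.34. DESeq2 and limma-voom also called 0 there, against 16.4% and 26.1% of all genes. From 20 to 26 weeks 2 were called, both lower, against 7.98% of all genes called lower and 16% called in all. Median log2 changes of the 6 were 1.86, -0.42 and -2.46 in these comparisons, beside -0.02, 0.04 and 0.05 over all genes. The median from 14 to 20 weeks comes from chain genes, whose SE is 1.65 to 2.00. That from 20 to 26 weeks lies between Cd74 (-2.33 ± 0.76) and the chain gene H2-Ab1 (-2.59 ± 1.77). In the test of any change with age 2 of 6 were called, against 23% of all genes.

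**Figure D4:**
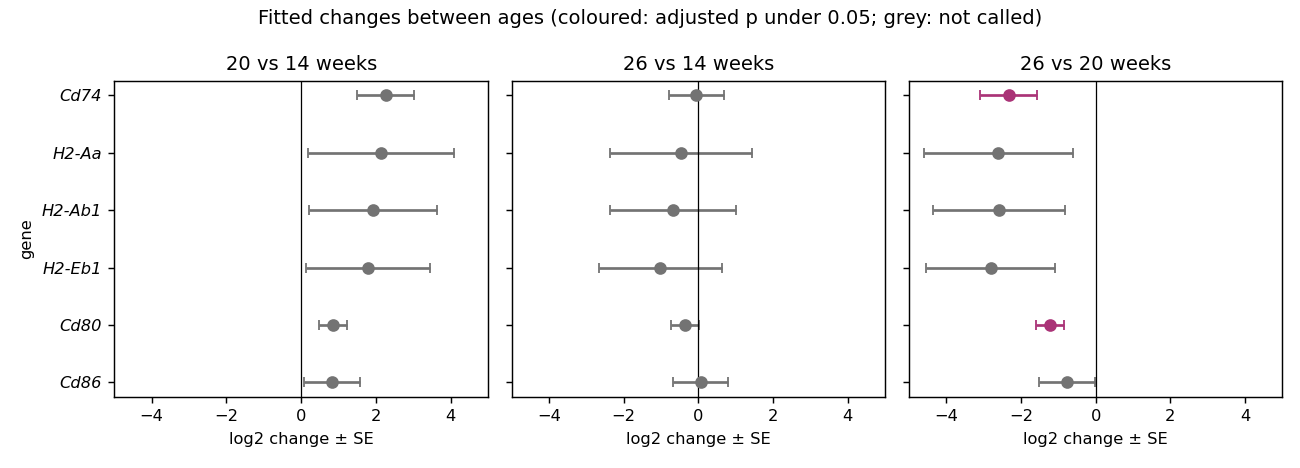
Fitted log2 changes with SE of the 6 tested genes in the 3 comparisons of ages, coloured where called. Cd74 (-2.33 ± 0.76) and Cd80 (-1.23 ± 0.38) are called from 20 to 26 weeks, and the chain genes have the widest bars.

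The H2-DM genes of class II loading were counted in most libraries. The H2-DM molecule removes the last piece of the invariant chain, and its beta chain gene H2-DMb2 had median levels of 21.6, 12.6 and 27 CPM at the 3 ages, with counts in 17 of the libraries and 0 in replicate 3 of 20 weeks. H2-DMa, the alpha chain gene, had medians of 3.71, 2.87 and 3.85 CPM. Its model overlaps 4 other genes, among them Brd2 on the opposite strand, and reads from those overlaps cannot be told apart. Of 3 tested genes of this list (H2-DMa, H2-DMb2 and H2-Ea-ps) 0 were called in any comparison, with a lowest edgeR adjusted p of 0.248. H2-DMb1, H2-Oa and H2-Ob had too few counts to be tested.

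Of 7 tested genes of class II processing, 2 rose and 0 fell from 14 to 20 weeks (median 0.63), and 0 rose and 3 fell from 20 to 26 weeks (median -0.86). From 14 to 26 weeks 1 rose, and the median was 0.47. Ctss, the protease cathepsin S that trims the invariant chain, ran from 9.36 to 38.8 CPM at 14 weeks and from 57.4 to 125 CPM at 20 weeks, with no overlap, and was 22.5 to 104.8 CPM at 26 weeks. Its log2 change was 2.10 ± 0.38 from 14 to 20 weeks and 1.49 ± 0.38 from 14 to 26 weeks (edgeR adjusted p = 0.0019 and 0.0143). Ctsb, another endosomal cathepsin gene, rose by 0.53 ± 0.13 from 14 to 20 weeks and fell by 0.42 ± 0.13 from 20 to 26 weeks (edgeR adjusted p = 0.0352), a call lost without replicate 2, 3, 4 or 6 of 20 weeks or 1, 5 or 6 of 26 weeks (up to 0.08). That Ctsb call was also lost with upper quartile scaling, limma-voom, no filter and only 2 ages (adjusted p from 0.0516 to 0.11). Ctsd, the cathepsin D gene, fell by 0.89 ± 0.22 from 20 to 26 weeks. March1, a ubiquitin ligase that removes class II and CD86 from the surface, fell over that interval from 185.9 ± 56 to 89.2 ± 26.7 CPM (-1.06 ± 0.23, edgeR adjusted p = 0.00398).

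Among 11 tested transcription factors of class II genes, 1 rose from 14 to 20 weeks, 0 were called from 14 to 26 weeks and 1 fell from 20 to 26 weeks (medians 0.09, -0.07 and -0.22). The interferon response factor gene Irf1 rose by 0.78 ± 0.22 (edgeR adjusted p = 0.0297), a call lost without replicate 1, 4, 5 or 6 of 14 weeks or 4 or 6 of 20 weeks (up to 0.0764). Irf2 fell by 0.59 ± 0.19 (adjusted p = 0.042), lost without replicate 5 of 14 weeks, 2, 4 or 6 of 20 weeks or 1, 2, 4, 5 or 6 of 26 weeks (up to 0.111), and with no filter on low counts (0.0811). The RFX and NF-Y subunit genes, whose products bind the X and Y boxes, were not called: Rfxap had medians of 26.6, 27.5 and 24.7 CPM and Nfyb 66.7, 49.8 and 41.6 CPM. Spi1, a myeloid factor, had medians of 1277, 1574 and 1273 CPM and was not called.

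The receptor and kinases of interferon gamma, an inducer of Ciita, all fell from 20 to 26 weeks (4 of 4, median -0.80). Ifngr1, which encodes the ligand-binding chain, ran from 95.5 to 185.9 CPM at 14 weeks, 199.4 to 441 CPM at 20 weeks and 88.2 to 230.4 CPM at 26 weeks. The 20-week libraries lay above all of 14 weeks and overlapped with the highest of 26 weeks. Its log2 changes were 1.08 ± 0.22 from 14 to 20 weeks and -0.99 ± 0.22 from 20 to 26 weeks (edgeR adjusted p = 0.00375 and 0.00421). Ifngr2, the gene of the second chain, fell by 0.57 ± 0.12 from 20 to 26 weeks. The kinase genes Jak1 (-0.61 ± 0.13) and Jak2 (-1.41 ± 0.31) fell as well. Jak1 and Jak2 were also lower at 26 than at 14 weeks (-0.81 ± 0.13 and -1.24 ± 0.31, edgeR adjusted p = 0.00149 and 0.0143), as was Ifngr2 (-0.41 ± 0.12), whose call was lost without replicate 1, 2, 3 or 4 of 14 weeks or 1, 5 or 6 of 26 weeks (up to 0.104), and with upper quartile scaling, no filter or the stricter filter (0.081 to 0.0961).

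Of 5 tested genes of other costimulatory and coinhibitory ligands, 2 rose from 14 to 20 weeks (median 0.66), 1 rose from 14 to 26 weeks (median 0.52) and 2 fell from 20 to 26 weeks (median -0.97). Cd274, which encodes PD-L1, had medians of 7.6, 79.8 and 13.8 CPM and no overlap between 14 and 20 weeks. From 20 to 26 weeks it fell by 1.90 ± 0.48 (edgeR adjusted p = 0.0104). Icam1, an adhesion ligand of LFA-1, had medians of 6.03, 42.7 and 21.3 CPM and was higher than at 14 weeks both at 20 weeks (3.09 ± 0.59) and at 26 weeks (2.13 ± 0.57). Icosl, the ligand of ICOS, fell by 1.03 ± 0.29 from 20 to 26 weeks (adjusted p = 0.0186), a call lost without replicate 2 of 20 weeks or replicate 1 of 26 weeks (up to 0.0559).

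On the CD40 signalling path, 1 of 12 genes rose from 14 to 20 weeks, 1 fell from 14 to 26 weeks and 2 fell from 20 to 26 weeks (medians 0.22, -0.26 and -0.82), while Cd40 itself was near 0. Nfkb2, the gene of the p100 precursor of the alternative NF-kB pathway, had medians of 16.4, 41 and 19 CPM, with 20 weeks above both other ages in every library. It rose by 1.22 ± 0.30 and fell by 1.23 ± 0.30 (edgeR adjusted p = 0.0119 and 0.0075). Rela fell by 0.79 ± 0.19 from 20 to 26 weeks. Traf6, an adaptor of CD40, was lower at 26 than at 14 weeks (-1.32 ± 0.42, adjusted p = 0.0477), a call lost without replicate 1, 2, 4, 5 or 6 of 14 weeks, 2, 5 or 6 of 20 weeks or 1, 2, 3 or 5 of 26 weeks (up to 0.127), and with RLE scaling, upper quartile scaling or no filter (0.056 to 0.0833). Of the T cell partners, Cd28, Icos and Cd40lg had counts in at most 3 libraries of an age and could not be tested.

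**Figure D5:**
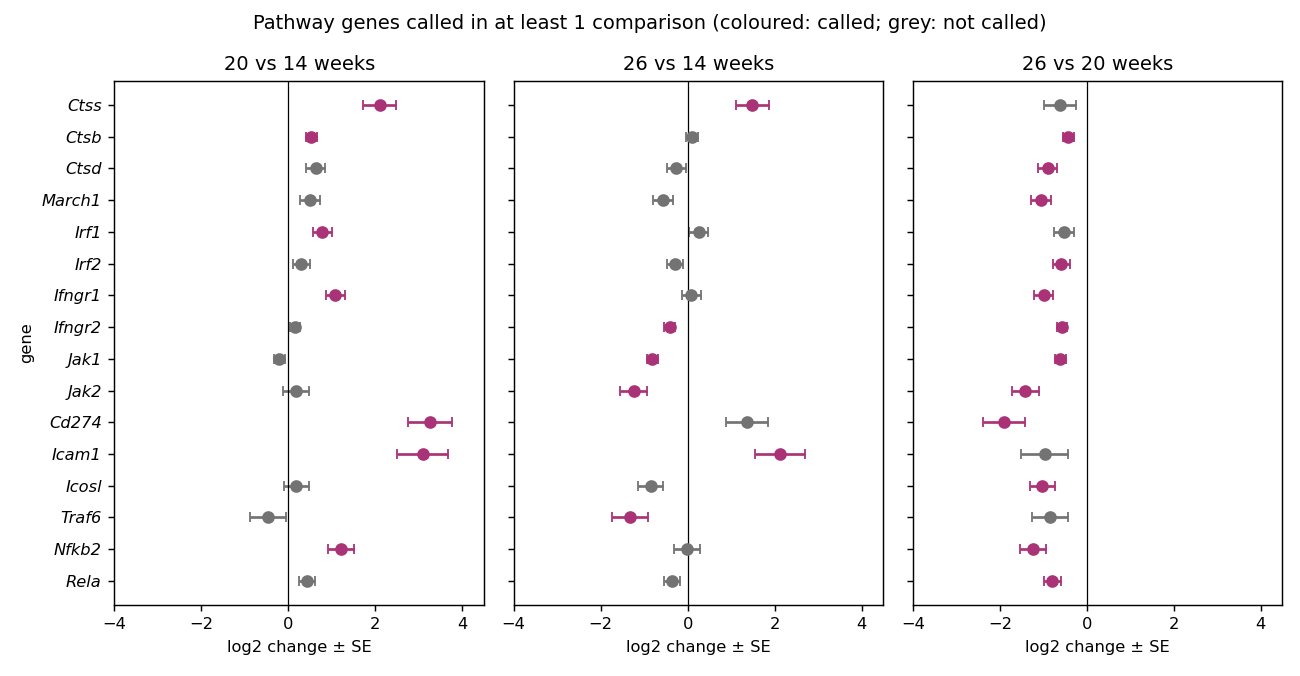
Fitted log2 changes with SE of the 16 pathway genes called in at least 1 comparison, coloured where called. From 20 to 26 weeks all 12 called genes lie below 0, from Ctsb (-0.42) to Cd274 (-1.90), and from 14 to 20 weeks all 7 lie above 0.

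Over all pathway lists, 42 genes were tested. Of these 7 rose and 0 fell from 14 to 20 weeks (median 0.24), 2 rose and 4 fell from 14 to 26 weeks (median -0.02) and 0 rose and 12 fell from 20 to 26 weeks (median -0.58). All genes had 4.93% and 5.27%, 5.45% and 5.54%, and 8.03% and 7.98% called higher and lower in the same comparisons. Without the 5 libraries that held Ms4a1, 4 of the 25 calls in these lists stayed past the threshold, in a fit of 13 libraries that called fewer genes in every comparison. All 25 log2 changes kept their direction there, at 0.663 to 1.31 times their size (median 0.88). In the fits that left out 1 library each, 19 of the 25 calls held throughout.

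By the pattern over 18 libraries, the 5 tested genes most like Cd74 were Rbm7 (r = 0.826), Nr4a1 (0.824), Nudcd3 (0.814), Pygo2 (0.806) and Uap1 (0.804), with rho of 0.822, 0.829, 0.812, 0.754 and 0.822. For each chain gene the 3 nearest were the other chain genes and H2-Ea-ps, which had r = 0.974 with H2-Aa, 0.908 with H2-Ab1 and 0.875 with H2-Eb1 (rho 0.869, 0.899 and 0.943). The summed level of Cd74 and the 3 chain genes was also nearest to H2-Ea-ps (r = 0.81, rho 0.688). The genes nearest to Cd80 were 5031439G07Rik (0.893), Ndel1 (0.875), Gabpb1 (0.873), Apbb1ip (0.856) and Sf1 (0.856), with rho of 0.864, 0.878, 0.785, 0.827 and 0.853. Among those nearest to Cd86 were Tlr6 (0.923), Klhl18 (0.923), Tfip11 (0.922) and Icmt (0.915), with rho of 0.792, 0.785, 0.728 and 0.748. These genes were picked as the highest of all tested genes, and r in Cd86 includes its 0 in replicate 3 of 20 weeks. No chain gene was among the 5 nearest of Cd74, Cd80 or Cd86.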

How the data were processed

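The deposited table holds raw read counts per gene symbol, 1 column per library. Per the submitters' processing notes, the authors used STAR 2.4.2a, HTSeq 0.6.1, Trimmomatic 0.32, DESeq and DESeq2 1.12.3, with the build GRCm38.p4. Which tool did what, the gene annotation and the strand setting are not stated there. Per the labels' protocols, libraries were made with Nextera XT from 1 ng of cDNA and read as single ends of 100 nt. They name no molecular identifiers. Libraries were grouped by the age in their titles.

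Genes were tested with edgeR 4.0.16 (R 4.3.3): 1 robust quasi-likelihood fit of the 18 libraries, with age alone in the model, TMM scaling, low counts removed by filterByExpr within ages, and Benjamini-Hochberg adjusted p under 0.05 over all 10104 genes. The SE is the log2 change over the square root of F. For correlations, CPM was put on a log2 scale with a prior count of 2. Gene positions and lengths came from GENCODE M21 and promoters from RefSeq. Replicates differed by more than counting error (mean chi-square per gene from 26.1 to 182). The code was tested on simulated data, where it called 44% of 2-fold and 84% of 4-fold changes from 14 to 20 weeks. Those changed genes were drawn from the more abundant ones, and 10 of 9434 unchanged genes were called. The alternatives were other scaling (RLE, upper quartile), DESeq2 1.42.0, limma-voom (limma 3.58.1), other filters, 2 ages only, a replicate block and each library left out. The members, gene lists and tests were chosen with earlier results of these data known. All 8 members are named, with up to 4 called genes of each list per comparison, by smallest p, and the 5 genes most like each tested member and the class II sum, by Pearson r (those of the class II sum in part). Cell type markers, genes counted in the text and some genes not called were named beyond that, with their values seen. A few genes that this rule would name are not reported here.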

Additional observations from a re-analysis of the deposited data

Results flagged for a closer look

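Of 21 sets of 6 libraries with any counts (8 genes at 3 ages), 10 had 1 library far above the other 5, by more than Dixon's critical value, which chance passes in about 1 of 20 sets of well-behaved values. Replicate 6 of 14 weeks accounted for 5 of them, with Cd74 at 75.9 CPM, H2-Aa at 11.2 CPM, H2-Ab1 at 19.1 CPM, H2-Eb1 at 12.2 CPM and Cd40 at 0.433 CPM. That library also held 91 counts of Ms4a1 and 54 of Cd79b. Replicate 6 of 20 weeks stood above its age in H2-Aa (40.5 CPM) and H2-Ab1 (50.0005 CPM), with 141 and 213 counts of the same B cell genes. Cd80 stood high in replicate 3 of 20 weeks (68.8 CPM) and in replicate 3 of 26 weeks (33.9 CPM). Ciita was seen in replicate 3 of 26 weeks alone (0.567 CPM), the library with the highest total. Sets in which most libraries are at 0 pass this threshold easily.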

How the results depend on the processing

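Over all genes, edgeR called 1030, 1111 and 1617 genes from 14 to 20, 14 to 26 and 20 to 26 weeks and 2321 for any change with age. Leaving out 1 library gave 702 to 1263, 652 to 1544 (fewest without replicates 1, 2 or 6 of 26 weeks), 1141 to 1911 and 1780 to 2682 genes. DESeq2 called 1563 genes from 14 to 20 weeks, limma-voom 2633 from 14 to 26 weeks and 4005 for any change, and a fit of only the 2 ages 1693 from 14 to 26 weeks. Upper quartile scaling moved the share called higher from 14 to 26 weeks from 49.6% to 62%. Without the 5 libraries that held Ms4a1, a choice made after seeing the data that leaves 3 libraries at 20 weeks, 144, 473 and 377 genes were called and 811 for any change.

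Of the 6 members, 0, 0 and 2 were called in these comparisons and 2 for any change, with 0 to 2, 0 to 1, 0 to 2 and 0 to 2 when 1 library was left out. From 14 to 20 weeks DESeq2, the stricter filter (10 CPM in 6 libraries), the replicate block and the fit without Ms4a1 libraries each called 1 and limma-voom 2. Of all genes they called 15.5%, 18.9%, 9.52%, 1.32% and 14.1%, in that order. From 20 to 26 weeks the fits with no filter and with only 2 ages called 1, and that without Ms4a1 libraries 0, against 7.89%, 11.2% and 3.46% of all genes. For any change the fits with no filter and without Ms4a1 libraries called 1. The cause was not tested.

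Signs that turned all belonged to 14 against 26 weeks, where no member was called. Cd74 (-0.06) became 0.021 with upper quartile scaling, 0.019 with the stricter filter, 1.00 with limma-voom, 0.87 with the replicate block and 1.70 without Ms4a1 libraries, and ran from -0.44 to 1.70 when 1 library was left out. Limma-voom and the replicate block gave 1.22 and 0.92 for H2-Aa, 2.13 and 3.05 for H2-Ab1 and 0.67 and 0.80 for H2-Eb1, which was 1.88 without Ms4a1 libraries. Leaving out 1 library gave -1.90 to 5.48, -1.28 to 7.43 and -1.60 to 2.46 for these 3 genes, highest without replicate 6 of 14 weeks. Cd86 (0.06) was -0.10 with limma-voom and -0.14 to 0.37 when 1 library was left out.

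Replicate numbers are shared between ages, and 1 of 18 same-numbered pairs had deviations correlated over 0.1 (-0.0527 to 0.136). Of the 18 libraries, 6 correlated best with their own number. How many would do so by chance was not computed, so this count does not decide on pairing. The libraries were not taken as pairs, and the replicate block is given as an alternative. With the replicate block Cd74 was called from 14 to 20 weeks (3.07, adjusted p = 0.00525), and 962, 946 and 1573 genes were called. The calls of Irf1 from 14 to 20 weeks (adjusted p = 0.0576) and Traf6 from 14 to 26 weeks (0.0654) were lost with the block. Of the 25 calls of pathway genes, 20 held under every other scaling, tool, filter and model tried on all 18 libraries or on only 2 ages. Mean levels of the 8 members moved by less than 1 SD with RLE scaling or none. Counts of the chain genes, Cd40 and Ciita are too few for a change to be detectable in most libraries.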

Other observations

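Several genes that are background markers of B cells and dendritic cells were counted in few libraries and could not be tested. Irf8, a transcription factor of those cells, had 0 counts at 14 weeks, 125 counts in 2 libraries at 20 weeks and 15 counts in 1 library at 26 weeks. Cd83, a surface protein that stabilises class II and CD86, had 14, 149 and 48 counts in 1, 2 and 2 libraries of the 3 ages. H2-Ob, the beta chain gene of the H2-O regulator of class II loading, had 15, 73 and 2 counts in 1, 2 and 1 libraries.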
